A study of Mus musculus with 2 samples.

Results

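The genes described here are the integrin chains, their cytoplasmic activators and the adhesion molecules they bind, in mouse regulatory T (Treg) cells with and without the transcription factor Bcl11b. They were taken by name from the array annotation: every gene whose name begins with Itga, Itgb or Icam, together with Vcam1, Selplg, Sele, Selp, Cd44, Pecam1, Madcam1, Jam2, Jam3, Cd226, Alcam, Tln1, Tln2, Fermt3 and Ilk, and without Itgae, Itga4, Itgb7 and Itga2b. This gave 46 genes of the 27968 gene names on the array, measured by 94 probes. The rule uses names alone, and Itgb1bp1, Itgb1bp2, Itgb1bp3, Itgb3bp and Itgbl1 came in through the first letters of their names without being integrin chains. Of these, Itgb1bp1 and Itgb1bp2 were grouped with the integrin activators and adaptors, and the others are members by name only.

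Sorted Treg cells of C57BL/6 background were compared on 2 two-colour arrays, each with wild-type cells in the Cy3 channel and Bcl11b-deficient cells in the Cy5 channel, without a dye swap. In the first comparison, here the Cd4Cre array, the deficient cells came from Bcl11bF/F/Cd4Cre/Foxp3-GFP+ mice and both pools were sorted by Foxp3-GFP; in the second, the Foxp3Cre array, the deficient cells came from Bcl11bF/F/Foxp3Cre mice. The labels place the first array by its Foxp3-GFP sort and the second by the other line of the design text. Each wild-type pool came from 3 mice, and the labels state no such number for the deficient pools, no age, and no Cre or floxed allele in the wild type. Cd4Cre is active from T cell development in the thymus onward, in conventional as well as regulatory T cells, whereas Foxp3Cre is active in cells that express Foxp3. With 1 array per Cre system there was no replicate check, so values on an array carry no p-value. Where a sentence gives a pair of values without naming the array, the Cd4Cre value comes first and the Foxp3Cre value second. Errors given with ± are the scanner software's error of the ratio on that array, covering its spots and not animals.

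Integrins are heterodimers of an alpha and a beta chain that attach cells to matrix or to counter-receptors on other cells. On leukocytes, the beta2 chain (Itgb2) pairs with Itgal to form LFA-1, which binds the ICAMs, and with Itgam or Itgax to form receptors known mainly from myeloid cells and dendritic cells. Talin (Tln1) and kindlin-3 (Fermt3) bind the cytoplasmic tail of beta chains and bring integrins to their active state, in which T cells arrest on endothelium and hold the immune synapse. Treg cells are known to use LFA-1 in contact with dendritic cells, and integrin alphav-beta8 (Itgav with Itgb8) to release active TGF-beta from its latent form.

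Promoters were examined for the 30 genes with an entry in the RefSeq promoter table (33 entries, GRCm38.p6), over the 250 bases before the start. Shown are those of the activators Tln1 and Fermt3, which read lower in deficient cells of both Cre systems, and of Itgam and Itgax, neighbours on chromosome 7 that read higher in deficient cells of the Cd4Cre system. They lie at chr4:43562584-43562833 (minus strand, Tln1), chr19:7019470-7019719 (minus strand, Fermt3), chr7:128062390-128062639 (plus strand, Itgam) and chr7:128129300-128129549 (plus strand, Itgax). Capitals mark matches, on either strand, to the ETS core GGAAGT, the Runx motif TGTGGT or the GC box GGGCGG.
Tln1: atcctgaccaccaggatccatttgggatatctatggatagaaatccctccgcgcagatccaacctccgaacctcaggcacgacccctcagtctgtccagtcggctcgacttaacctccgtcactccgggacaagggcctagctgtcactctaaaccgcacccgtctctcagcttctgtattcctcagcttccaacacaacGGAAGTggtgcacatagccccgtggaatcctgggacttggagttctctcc
Fermt3: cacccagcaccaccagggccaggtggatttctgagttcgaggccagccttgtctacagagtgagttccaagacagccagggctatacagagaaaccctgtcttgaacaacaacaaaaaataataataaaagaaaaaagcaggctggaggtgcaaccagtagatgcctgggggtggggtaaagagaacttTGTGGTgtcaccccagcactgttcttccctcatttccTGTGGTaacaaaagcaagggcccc
Itgam: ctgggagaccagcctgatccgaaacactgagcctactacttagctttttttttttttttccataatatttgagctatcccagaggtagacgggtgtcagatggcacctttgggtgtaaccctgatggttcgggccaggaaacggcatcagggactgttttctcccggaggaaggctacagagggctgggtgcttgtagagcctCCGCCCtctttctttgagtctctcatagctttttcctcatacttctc
Itgax: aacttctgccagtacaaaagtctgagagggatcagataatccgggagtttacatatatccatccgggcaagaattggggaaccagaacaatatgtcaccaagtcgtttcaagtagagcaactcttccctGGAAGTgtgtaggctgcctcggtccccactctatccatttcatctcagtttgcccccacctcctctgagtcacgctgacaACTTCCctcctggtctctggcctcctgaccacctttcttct
Fermt3 held the Runx motif at 61 and 24 bases before the start, Itgax the ETS core at 121 and 41 bases, Tln1 the ETS core at 50 bases and Itgam a GC box at 47 bases. The ETS core was found in 9 of the 33 member entries (27.3%) and in 19.7% of all 32851 promoters, the Runx motif in 4 (12.1%) and 14.0%, and the GC box in 12 (36.4%) and 32.7%. GGCCGG, searched as a Bcl11b element, was in 9 member entries (27.3%) and in 15.8% of all, and the NF-kappaB motif GGGNTTTCC in 2 (6.06%) and 1.46%. The motifs were searched on both strands and do not overlap one another in these 4 windows; a match is a match of letters and not a bound site.

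Each array held 43379 gene-probe spots, none saturated, and the wild-type channel cleared the background (the software's flag for well above background) at 24439 and 23446 of them, the deficient channel at 21773 and 20689. Probes spotted repeatedly had a median SD of 0.056 and 0.071 in log2 ratio (245 probes), which covers spotting and not animals. Bcl11b itself, measured as a check of the labels, read 5.50-fold lower in the deficient pool on the Cd4Cre array (log2 signal 15.55 in wild type and 13.09 in deficient) and 3.52-fold lower on the Foxp3Cre array (14.95 and 13.14); where its probe lies relative to the deleted part was not analysed here. All 6 Treg markers looked at (Foxp3, Il2ra, Ctla4, Ikzf2, Tnfrsf18, Gpr83) and all 8 T cell markers cleared the background in the 4 pools. Foxp3, however, had log2 ratios of -3.57 (Cd4Cre) and -0.20 (Foxp3Cre), and 5 of the 6 Treg markers were at least 2-fold lower in the Cd4Cre deficient pool, against 0 lower in the Foxp3Cre one. Its log2 signal in wild type and deficient cells was 12.50 and 8.93 (Cd4Cre) and 10.02 and 9.82 (Foxp3Cre). The log2 of the summed Treg marker signal was 17.8 in the Cd4Cre wild type and 16.4 in the Foxp3Cre wild type. For B cell markers these sums were 14.5 and 16.1, and for T cell markers 19.5 and 19.3. The wild-type pools thus differed too, and the cause was not tested. Markers of natural killer and cytotoxic cells were at least 2-fold higher for 8 of 9 genes in the Cd4Cre deficient pool (median log2 ratio 3.36) and for 1 of 9 in the Foxp3Cre one (0.57). The deficient pool sorted as Foxp3-GFP+ in the Cd4Cre system thus differed from its wild type in Treg and cytotoxic marker genes, and every Cd4Cre value below was read from that pool. In RNA from a sorted pool, fewer cells of a type and less RNA per cell cannot be told apart.

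Of the 46 genes, the Cd4Cre array detected 33 and the Foxp3Cre array 31, where detected means that 1 or both channels of the gene's brightest probe carried that flag; 30 were detected on both. The 12 detected on neither were Itga2, Itga8, Itga10, Itga11, Itgb6, Itgb1bp3, Itgbl1, Jam2, Jam3, Madcam1, Sele and Tln2. A ratio was called at 2-fold. On the Cd4Cre array 4 members were at least 2-fold higher in deficient cells (Itgam, Itgax, Itgb2l, Alcam), where 11.4% of the 15868 detected genes were, and 9 were at least 2-fold lower (Itga6, Vcam1, Itgb8, Tln1, Fermt3, Itgal, Itga9, Itgb2, Pecam1), where 10.6% of all genes were. On the Foxp3Cre array 2 were at least 2-fold higher (Itgb1 and Itgb2l; 2.94% of the 15182 detected genes) and 6 lower (Fermt3, Itgb2, Itgal, Itgb3, Selplg, Icam1; 11.5% of all genes). The share of members was 12.1% higher and 27.3% lower on the Cd4Cre array, and 6.45% higher and 19.4% lower on the Foxp3Cre array. Under median centring in place of loess the counts were 5 higher and 7 lower on the Cd4Cre array and 5 higher and 1 lower on the Foxp3Cre array, and all genes turned the same way. Centring gave 2855 genes higher and 1319 lower of 15868 (1808 and 1682 with loess) on the Cd4Cre array, and 2042 higher and 1022 lower of 15182 (446 and 1749 with loess) on the Foxp3Cre array.

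**Figure D1:**
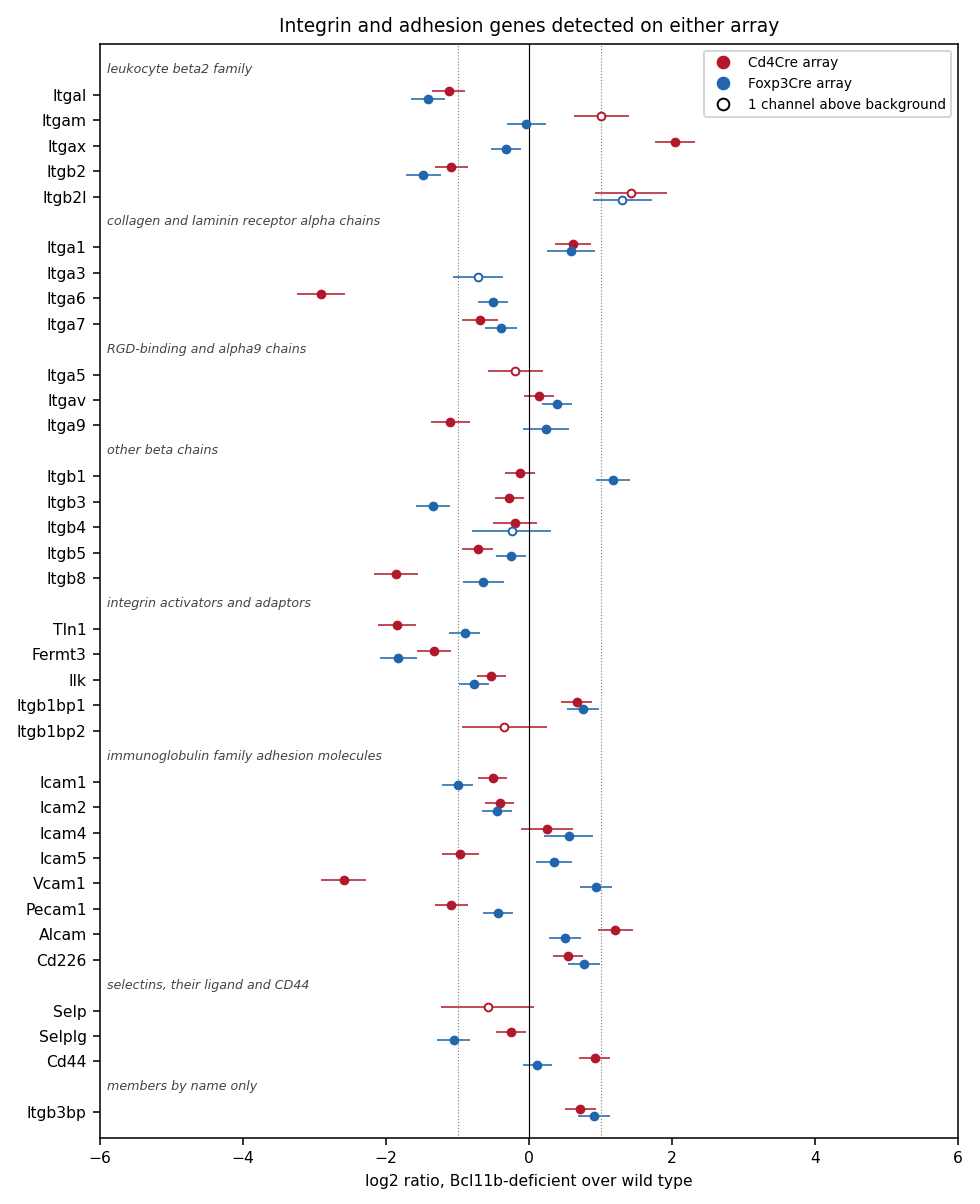
Log2 ratio of Bcl11b-deficient over wild-type signal (horizontal axis) of each member detected on at least 1 array, by role, in red for the Cd4Cre array and blue for the Foxp3Cre array. Bars are the scanner software's error of 1 array, open circles had 1 channel above background, and dotted lines mark 2-fold; Itgal, Itgb2 and Fermt3 lie beyond the lower line on both arrays with loess normalization, and of these Fermt3 alone is beyond it on the Foxp3Cre array with median centring.

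Detected members had a median log2 ratio of -0.35 in the Cd4Cre comparison (all detected genes -0.050) and of -0.26 in the Foxp3Cre comparison (all detected genes -0.084). Median centring moved the all-gene median by 0.12 and 0.25 and the member median to -0.12 and 0.068, so relative to all genes the members' lower median was smaller there. The Cd4Cre array gave 11 members above 0 and 22 below, the Foxp3Cre array 13 above and 18 below.

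Both LFA-1 chains read lower in deficient cells of both Cre systems. Itgal (chromosome 7 from 134478358 to 134478417, mm9) had a log2 signal of 16.11 in wild type and 14.98 in deficient cells of the Cd4Cre system, and 15.53 and 14.11 in the Foxp3Cre system. The deficient pool was lower on each array, by log2 ratios of -1.13 ± 0.23 and -1.42 ± 0.24, and a second Itgal probe gave -0.74 and -1.32; the mean over both probes, -0.94, was short of 2-fold on the Cd4Cre array. Itgb2 (chromosome 10 from 77027978 to 77028037), the common beta2 chain, went from 15.93 to 14.84 and from 15.19 to 13.71, with log2 ratios of -1.09 ± 0.23 and -1.48 ± 0.24. Both genes kept this sign under median centring, but at ratios of -0.16 on the Cd4Cre array for each gene, and of -0.54 and -0.69 on the Foxp3Cre array, short of 2-fold.

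The remaining beta2-family genes differed between the arrays. Itgax (chromosome 7 from 135294052 to 135294111), the CD11c chain of dendritic cells and some myeloid cells, had a log2 signal of 11.83 in wild type and 13.86 in deficient cells on the Cd4Cre array and of 11.98 and 11.65 on the Foxp3Cre array. Its log2 ratio was 2.04 ± 0.28 in the first and -0.32 ± 0.21 in the second, so only the Cd4Cre deficient pool stood high. A second Itgax probe, not well above background in the wild type of the Cd4Cre array, exceeded its wild-type bound by at least 2.01-fold in the deficient pool there. Itgam (chromosome 7 from 135261475 to 135261534), the alpha chain of Mac-1, was not well above background in the Cd4Cre wild type and at least 2.01-fold higher in the deficient pool, and read -0.04 on the Foxp3Cre array. Its Cd4Cre log2 ratio of 1.01 was short of 2-fold without background subtraction (0.75) and under median centring (0.88). Its other probe gave a log2 ratio of 2.04 on the Cd4Cre array and was not well above background on the Foxp3Cre array. Itgb2l (chromosome 16 from 96644073 to 96644132), a beta2-like chain known from maturing neutrophils, was not well above background in either wild-type pool; the deficient pools were higher by at least 2.28-fold (Cd4Cre) and by at least 2.43-fold (Foxp3Cre). Such bounds compare the bright channel with a limit set for the dim channel. That limit was the dim channel's own signal or its smallest signal flagged as well above background, whichever was larger. Both channels were put on one scale by loess and Aquantile. Signals without the flag could exceed the smallest flagged one (Itgam in the Cd4Cre wild type, 7.65 against 7.55). Folds given as "at least", here and below, thus hold for that limit and are not strict minimum folds. Without a dye swap they are open to dye bias.

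Myeloid markers were read beside these chains. Of 13 myeloid markers with a probe, all were detected on the Cd4Cre array, with 7 at least 2-fold higher and 2 lower in the deficient pool, and the log2 of their summed signal was 16.3 in wild type and 19.0 in deficient cells. On the Foxp3Cre array 5 of 12 detected were higher and 1 was lower, with a summed signal of 17.5 and 18.2, and Elane alone was not well above background. Of 6 dendritic cell markers, 3 in the Cd4Cre deficient pool and 0 in the Foxp3Cre deficient pool were at least 2-fold higher. In the same Cd4Cre pool both CD8 T cell markers and 2 of 5 detected B cell markers were at least 2-fold higher, and none of either kind in the Foxp3Cre pool. Of 9 mast cell markers, 4 were detected on the Foxp3Cre array with 3 at least 2-fold higher (Cpa3, Mcpt4 and Mcpt8, none well above background in wild type; their list median log2 ratio was 2.04), and 4 on the Cd4Cre array with 1 higher. The part of these markers, or of the cytotoxic markers above, in the ratios of Itgam, Itgax and Itgb2l was not tested.

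**Figure D2:**
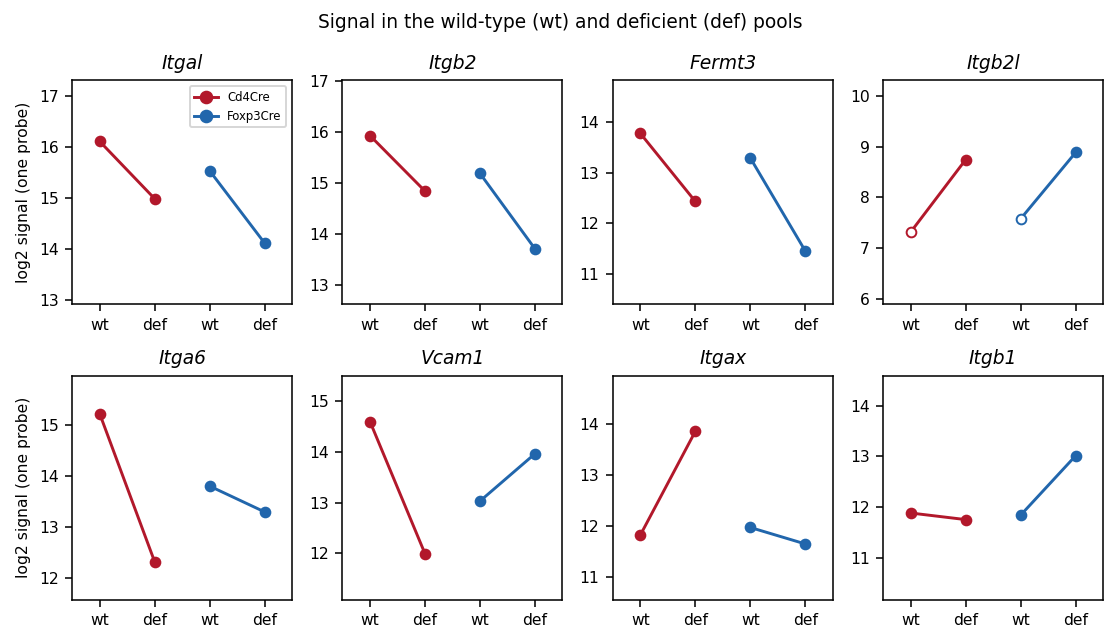
Log2 signal of the brightest probe of 8 members (vertical axis, in arbitrary units for each probe) in the wild-type and deficient pools of the Cd4Cre (red) and Foxp3Cre (blue) arrays, with open circles where the pool was not well above background. Itga6 goes from 15.23 to 12.32 on the Cd4Cre array and from 13.81 to 13.30 on the Foxp3Cre array (a ratio that turns to 0.09 under median centring), and for Itgb2l both wild-type points are open.

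Among the alpha chains of collagen and laminin receptors, Itga6 had the lowest log2 ratio of the detected members on the Cd4Cre array. Its brightest probe (chromosome 2 from 71695973 to 71696032) read 15.23 in wild type and 12.32 in deficient cells there and 13.81 and 13.30 on the Foxp3Cre array. The log2 ratios were -2.91 ± 0.34 and -0.51 ± 0.21, the second turning to 0.09 under median centring. The other Itga6 probes read -2.28 and -3.43 on the Cd4Cre array and -1.21 and -1.71 on the Foxp3Cre array, so the amount on the Foxp3Cre array depended on the probe. Itga1, a collagen receptor chain, read 0.61 and 0.59, and 2 further probes of Itga1, not well above background in the Cd4Cre wild type, were higher in the deficient pool by at least 3.12-fold and by at least 1.80-fold. Itga7 read -0.69 and -0.39, and Itga3 -0.71 on the Foxp3Cre array, where wild type alone was above background.

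The RGD-binding alpha chains and Itga9 gave mixed values. Itgav, which partners Itgb8, read 0.14 and 0.39 with its brightest probe. Another of its probes, with wild type alone above background, was at least 3.30-fold lower on the Cd4Cre array and read -1.12 on the Foxp3Cre array. Its detected probes therefore disagreed in sign on both arrays, and their mean was -0.45 and -0.30. Itga9 was lower on the Cd4Cre array with both of its probes (-1.10 and -1.79), the first at -0.97 without background subtraction, and its brightest probe read 0.23 on the Foxp3Cre array. Itga5, the alpha chain of the fibronectin receptor, read -0.19 on the Cd4Cre array, where wild type alone was above background.

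Beta chains outside the beta2 family included the common beta1 chain. Itgb1 (chromosome 8 from 131256492 to 131256551) had a log2 signal of 11.89 in wild type and 11.76 in deficient cells on the Cd4Cre array and of 11.85 and 13.02 on the Foxp3Cre array. The log2 ratios were -0.13 and 1.17, with an SD over repeated spots of 0.016 (7 spots) and 0.048 (9 spots), and the first was 0.03 under median centring. A second Itgb1 probe gave 0.71 and 1.20, so the probes shared the Foxp3Cre value and differed in sign on the Cd4Cre array. Itgb3, the vitronectin receptor beta chain, read -0.28 and -1.35, with a second probe at -0.94 and 0.17. Under median centring the first probe read 0.39 and -0.52, and the mean over both probes on the Foxp3Cre array was -0.59. Of 8 platelet markers with a probe, 2 were detected on each array. Gp1ba, Gp5, Gp6, Gp9 and Ppbp were among those not well above background. The log2 of the summed signal of all 8 was 10.45 in wild type and 10.56 in deficient cells (Cd4Cre) and 10.69 and 11.44 (Foxp3Cre). Most markers in these sums were thus not well above background. Pf4, a platelet chemokine, read 2.51 on the Foxp3Cre array and, with wild type not well above background, 1.38 on the Cd4Cre array. Gp1bb, the other detected marker, read -0.73, with wild type alone above background, and -0.09. The markers' part in the Itgb3 ratios was not tested.

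Itgb8, which activates TGF-beta with Itgav, read lower on both arrays with its brightest probe, past 2-fold on the Cd4Cre array. That probe's log2 signal went from 10.65 to 8.79 on the Cd4Cre array and from 9.10 to 8.46 on the Foxp3Cre array, with log2 ratios of -1.86 ± 0.31 and -0.64 ± 0.29. On the Foxp3Cre array no other Itgb8 probe was well above background. On the Cd4Cre array a second probe read -0.60, with wild type alone above background, and the mean over the detected probes was -1.23. The Treg markers given above were lower in the same Cd4Cre pool, and their part in the Itgb8 ratio was not tested. The Itgb4 ratios were -0.20 and, with wild type alone above background, -0.25, and those of Itgb5 -0.72 and -0.26.

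The activators Fermt3 and Tln1 read lower in both systems. Fermt3 (kindlin-3; its probe spans chromosome 19 from 7074257 to 7076292) went from 13.77 to 12.43 on the Cd4Cre array and from 13.29 to 11.46 on the Foxp3Cre array. The log2 ratios were -1.34 ± 0.24 and -1.83 ± 0.26, and -0.95 and -1.45 under median centring. Tln1 (talin; chromosome 4 from 43544558 to 43544617) went from 14.37 to 12.52 and from 13.23 to 12.33. Its log2 ratios were -1.85 ± 0.26 and -0.90 ± 0.22, and its other probes gave -0.21 and -2.65 on the Cd4Cre array and -1.20 and -1.81 on the Foxp3Cre array. Every detected Tln1 probe was below 0, but over a span of more than 2 log2 units on the Cd4Cre array. Ilk, a kinase adaptor of beta tails, read -0.53 and -0.78. Itgb1bp1, an inhibitor of talin binding to beta1 tails, read 0.66 and 0.75 with its brightest probe and -0.46 and -0.34 with its second, so its direction depended on the probe. Itgb1bp2 read -0.35 on the Cd4Cre array, where wild type alone was above background. Itgb3bp, a member by name, read 0.71 and 0.90.

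Immunoglobulin-family adhesion molecules gave the pair of values that lay farthest apart between the arrays. Vcam1 (chromosome 3 from 115813216 to 115813275), the ligand of alpha4 integrins, had a log2 signal of 14.59 in wild type and 11.99 in deficient cells on the Cd4Cre array, and of 13.03 and 13.96 on the Foxp3Cre array. The log2 ratios were -2.60 ± 0.32 and 0.93 ± 0.23, a second probe gave -1.58 and 1.05, and the signs held under median centring (-2.17 and 1.52). The difference between the arrays was 3.53 log2 units; with 1 array per system it was not tested. Icam1, the ligand of LFA-1, read -0.51 (SD 0.027 over 10 spots) and -1.003 (SD 0.043 over 10 spots), and with a second probe -0.03 and -1.42; the brightest probe read 0.05 and -0.50 under median centring, and -0.90 on the Foxp3Cre array with the software's ratio, both short of 2-fold there. Icam2 read -0.41 and -0.45, of opposite sign (0.52 and 0.59) under median centring. Icam4 read 0.24 and 0.55, and Icam5 -0.97 and 0.35. Pecam1, a homophilic receptor of endothelium and leukocytes, read -1.09 (SD 0.059) and -0.44 (SD 0.049) over 10 spots each. Alcam, the ligand of Cd6, read 1.20 ± 0.24 and 0.50 ± 0.22, and Cd226, an activating receptor for Pvr and nectins, 0.54 and 0.76.

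Endothelial and stromal markers were set beside Vcam1 and Pecam1, since both genes are known from those cells. Of 9 endothelial markers, 5 were detected on each array and 3 exceeded 2-fold in the Cd4Cre deficient pool (Kdr 2.15, Cdh5 2.06, Egfl7 1.80), with 0 on the Foxp3Cre array, and Cldn5, Emcn, Tek and Tie1 were not well above background. The log2 of their summed signal was 11.3 in wild type and 12.4 in deficient cells (Cd4Cre) and 11.6 and 11.7 (Foxp3Cre). These sums include the markers not well above background. Of 8 stromal markers, the Cd4Cre array detected 2 and the Foxp3Cre array 1. Also on the Cd4Cre array, the endothelial marker Esam read 0.93 and the lowest of the 5 detected read -0.34, so these markers did not share a direction. The markers' part in the Vcam1 and Pecam1 ratios was not tested.

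**Figure D3:**
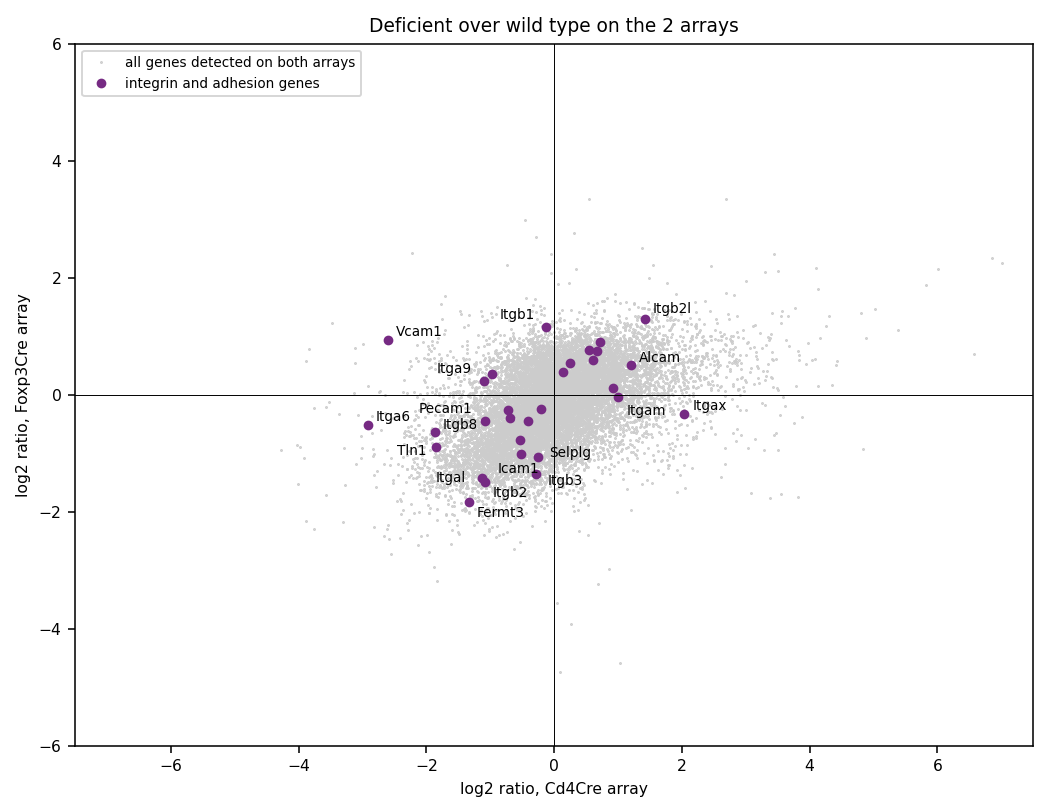
Log2 ratio on the Cd4Cre array (horizontal) against that on the Foxp3Cre array (vertical) for the 30 members detected on both (purple) and all 14369 genes detected on both (grey), with members at least 2-fold from 0 on either array named. Itgal, Itgb2 and Fermt3 lie in the lower left and Itgb2l in the upper right, whereas Vcam1 lies at -2.60 and 0.93; Selplg, Icam1, Icam2, Itgb1, Itgb3 and Itga6 change sign on at least 1 array under median centring.

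Values of Selplg and Cd44 depended on the scaling and the probe. Selplg, the ligand of P-selectin, read -0.26 and -1.06 with its brightest probe and -0.55 and -1.22 with its second. Under median centring the brightest read 0.95 and 0.07 and the second 0.17 and -0.60. Cd44, a hyaluronan receptor raised on activated and memory T cells, read 0.91 and 0.11, while its second probe, with 10 spots, read 0.71 (SD 0.029) and 0.68 (SD 0.048). Under median centring the brightest Cd44 probe read 1.73 and 0.84, past 2-fold on the Cd4Cre array, and the second 1.14 and 1.13. Selp read -0.58 on the Cd4Cre array with wild type alone above background.

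Across genes with several detected probes, the probes of 18 of 22 members shared a sign on the Cd4Cre array and those of 11 of 15 on the Foxp3Cre array. Probes differed by over 1 log2 unit for 9 and 4 members, respectively, including Itga6 on both arrays.

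**Figure D4:**
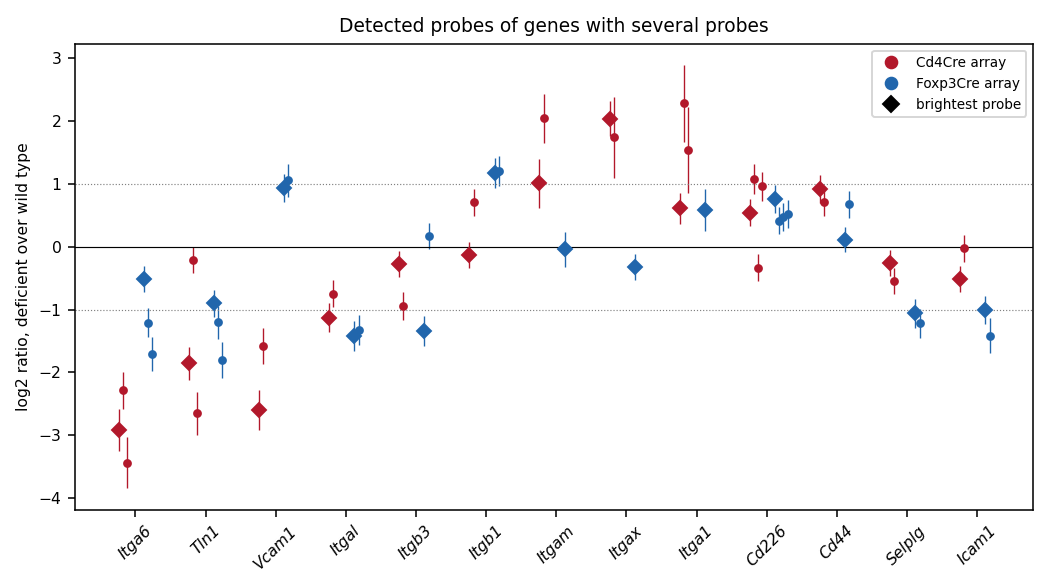
Log2 ratio of each detected probe (vertical axis) for 13 members with several probes, in red for the Cd4Cre array and blue for the Foxp3Cre array, with the brightest probe as a diamond and the scanner software's error as bars. The Itga6 and Tln1 probes are all below 0 but spread widely; those of Vcam1 lie on opposite sides of 0 on the 2 arrays, whereas those of Cd226 (Cd4Cre) and Itgb3 (Foxp3Cre) do not share a sign.

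Both arrays were then considered together. Of the 30 members detected on both, 1 (Itgb2l) was at least 2-fold higher on both, where 1.34% of 14369 genes were, and 3 (Fermt3, Itgal, Itgb2) at least 2-fold lower on both, where 4.57% of genes were. Under median centring 0 members were lower on both, where 329 of 14369 genes were. Higher on both were then 2 members, where 1088 genes were: Itgb2l, and Itgb1bp1 with its brightest probe (1.12 and 1.31). With loess, opposite signs on the 2 arrays were read for 6 of 30 members (20%), against 31.9% of genes. A limma model set each gene's mean over the 2 arrays against 0, with the difference between Cre systems as its spread, and called 0 of 14369 genes (0%) at an adjusted p of 0.05 (Benjamini-Hochberg), while 9 of the 30 members and 22.6% of all genes had an unadjusted p under 0.05. The member with the lowest p was Fermt3, lower on 2 of 2 arrays. Its mean log2 ratio was -1.58 (SE 0.34), with an adjusted p of 0.101 in this limma fit. Wild type was in Cy3 on both arrays, so the fit cannot tell a dye effect from a difference between the pools. Itgb2l had a mean of 1.36 (SE 0.33, adjusted p 0.101), Itgal -1.27 (SE 0.33, adjusted p 0.103), Itgb2 -1.29 (SE 0.33, adjusted p 0.103) and Tln1 -1.38 (SE 0.37, adjusted p 0.105) in the same limma fit with Benjamini-Hochberg adjustment; the Itgb2l value rests on wild-type signals not well above background. In that fit Vcam1 had a mean of -0.83 with an SE of 0.70 and an adjusted p of 0.507.

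The pathway around the integrins was read from gene lists outside the members. Of 41 integrin activation and adhesome genes with a probe, 36 were detected on the Cd4Cre array, of which 1 was at least 2-fold higher and 8 lower, and 35 on the Foxp3Cre array, of which 0 were higher and 9 lower. Their median log2 ratios were -0.68 and -0.50, and under median centring -0.099 and -0.081. Those at least 2-fold lower on both arrays were Cyth1 (-1.20 and -1.16), an exchange factor that binds the beta2 tail, Evl (-1.21 and -1.36), an actin regulator, Rapgef1 (-1.62 and -1.21), an activator of Rap1, Sipa1 (-1.28 and -1.49), an inactivator of Rap1, and Ptk2b (2-fold lower for Cd4Cre and -1.07 for Foxp3Cre), a kinase of the focal adhesion family. None of these 5 stayed 2-fold lower on both arrays under median centring, where the values were -0.42 and -0.49 for Cyth1, -0.12 and -0.29 for Evl, -1.22 and -0.81 for Rapgef1, -0.79 and -1.13 for Sipa1, and -0.72 and -0.85 for Ptk2b. Rasgrp2, an activator of Rap1, read -0.85 and -1.55. Skap2, an adaptor of integrin signalling, read 1.65 and 0.76. Among 10 tetraspanins and associated genes, 2 were higher (Cd9 1.76, Cd63 1.20) and 1 lower (Tspan32 -1.11, or -0.44 centred) on the Cd4Cre array, and 0 and 1 (Cd82 -1.07, or -0.12 centred) on the Foxp3Cre array. Of the matrix and soluble ligands, 9 were detected on the Cd4Cre array with 0 higher and 2 lower (Lamc1 -1.55, Tgfb1 -1.05), and 8 on the Foxp3Cre array with 1 higher (Spp1 1.44, with wild type not well above background) and 1 lower (Mfge8 -1.05).

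Selectin-related and junctional genes complete the lists. Of 14 detected genes of selectin ligand synthesis and partners, 5 were at least 2-fold higher and 2 lower on the Cd4Cre array, and 2 and 2 on the Foxp3Cre array. Gcnt1, a glycosyltransferase that builds selectin ligands, read 1.26 and 1.104, and Glg1, a Golgi glycoprotein and E-selectin ligand, -2.01 and -1.77. Cd24a, a P-selectin ligand, read 2.75 and 0.40, and Cd34, a sialomucin, 1.03, with wild type not well above background, and 1.56. Of the junctional and immunoglobulin genes, 3 of 13 detected were higher and 2 lower on the Cd4Cre array and 0 and 2 of 11 on the Foxp3Cre array, with Jaml at 2.11 on the first. Cd6, the receptor of Alcam, read -1.85 and -1.70, and Vsir -1.21 and -1.35. Under median centring Cd6 read -0.43 and -0.39 and Vsir -0.70 and -0.93, all short of 2-fold. Of the Cd226 partners, Crtam read 1.55 and Pvr -1.60 on the Cd4Cre array. Among 6 detected hyaluronan and CD44 partners, Hmmr, a hyaluronan receptor that also marks dividing cells, read 1.64 and 1.18, and Ezr, which links CD44 to actin, -0.88 and -1.46 (0.30 and -0.38 under median centring).

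**Figure D5:**
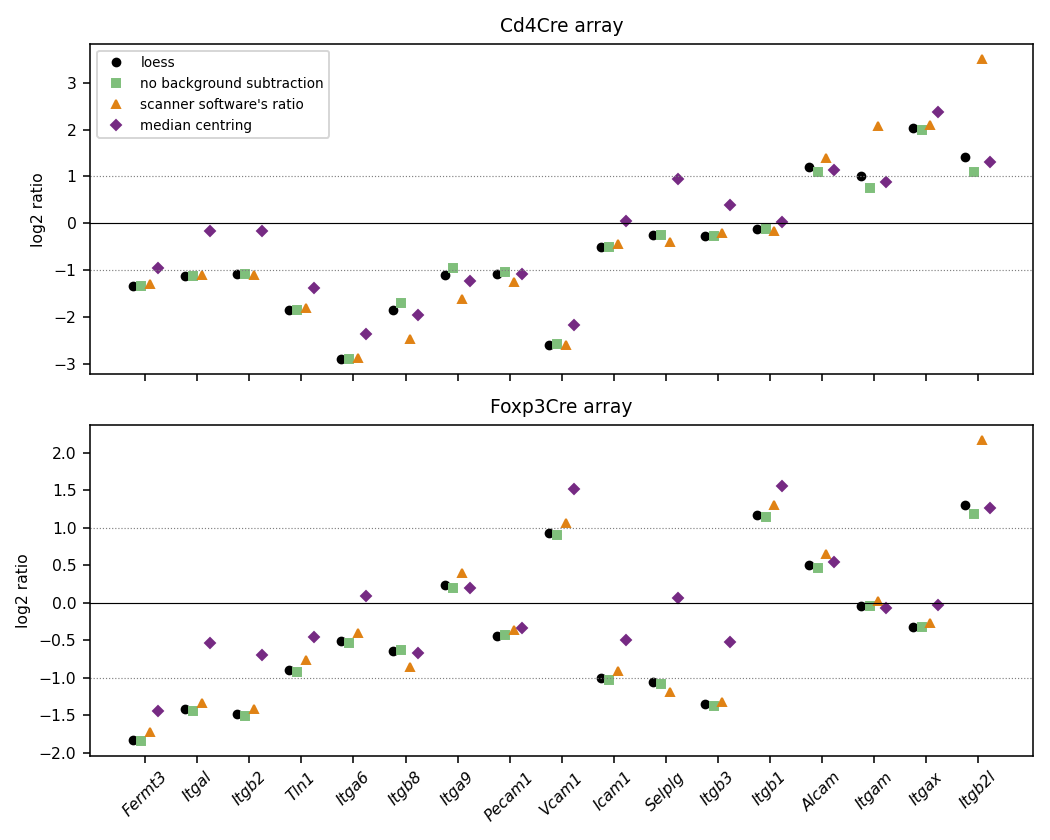
Log2 ratio of 17 members (vertical axis) on the Cd4Cre array (top) and the Foxp3Cre array (bottom) under loess normalization, no background subtraction, the scanner software's ratio and median centring, with dotted lines at 2-fold. Selplg, Itgb3, Icam1 and Itgb1 turn sign on the Cd4Cre array, and Selplg and Itga6 on the Foxp3Cre array, when arrays are centred on their median instead of loess.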

How the data were processed

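Per the labels, amplified RNA of sorted cells was labelled with Kreatech ULS dyes, Cy3 for wild type and Cy5 for deficient cells. The authors deposited scanner files holding a spot's mean and background intensity per channel. The same deposited files give the software's log10 ratio (Cy5 over Cy3) and its error, which the software background-subtracted and dye-normalized, per the file headers. The deposited value table equalled that log10 ratio (largest difference 0). The software was Agilent Feature Extraction, versions 10.5.1.1 and 10.7.3.1 per the file headers, and 10.5.1 per the submitters' processing notes.

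From the deposited intensities, background was corrected with normexp (offset 50) in limma 3.58.1 under R 4.3.3. There, loess normalization was applied to the log2 ratios array by array, giving control spots no weight. Spots of a probe were then averaged, leaving out outlier spots, and each gene takes the probe brightest on average over the arrays. Names come from the file or, through accession or symbol, from RefSeq (GRCm38.p6); coordinates are those of the files (mm9), and exon or UTR position was not analysed here. Named genes are members at least 2-fold from wild type on either array or bounded there, partner chains and counter-receptors, and list genes past 2-fold on both arrays or, in part, among the largest on one. Some genes of these lists are not reported here. The members and lists were chosen with earlier results of these data known. Alternatives were no background subtraction, the software's ratio, median centring, the mean over probes, no filter, both channels above background, and an intensity trend in limma. With 1 array per Cre system, precision is limited by their number.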

Additional observations from a re-analysis of the deposited data

Results flagged for a closer look

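Vcam1 had opposite signs on the 2 arrays. Its log2 ratios were -2.60 (Cd4Cre) and 0.93 (Foxp3Cre), a difference of 3.53 log2 units, which was not tested because each Cre system had 1 array. The sign on each array was the same with a second Vcam1 probe and under each normalization.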

How the results depend on the processing

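Fermt3, Itgal, Itgb2 and Itgb2l kept their direction on both arrays under every alternative that gave them a value. Requiring both channels above background left 2 of 28 members (7.14%) higher on the Cd4Cre array, where 1601 of 13527 genes were. The count of higher members on the Foxp3Cre array was then 1. It was 4 with the software's ratio and 5 with median centring, which left 1 lower member there. Over all genes on that array, 446 of 15182 were higher in the main setting and 416 of 13449 with both channels. The software's ratio gave 1153 of 15182 higher and median centring 2042 of 15182. In the same order of settings, 1749, 1457, 2020 and 1022 genes were lower. The share of detected members that were lower was 19.4%, 21.4%, 16.1% and 3.23%, so members did not always move as all genes did. The member median on the Cd4Cre array was -0.29 without background subtraction, -0.44 with the software's ratio, -0.12 with median centring, -0.41 with the mean over probes, -0.20 without a filter and -0.46 with both channels above background. On the Foxp3Cre array it was 0.068 with median centring and -0.095 without a filter. The brightest Selplg probe turned to 0.07 on the Foxp3Cre array with median centring, while its second probe read -0.60. The limma fit called 328 genes with median centring and 39 with both channels above background, with 0 members in each, and the lowest adjusted p of a member ranged from 0.0583 to 0.235 over the alternatives. The cause of these moves was not tested. The limma fit already takes the ratio of the 2 pools within each array. No paired analysis was possible across Cre systems by replicate number because each system had 1 array. Only probes well above background in both channels carry a ratio with 2 measured sides.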
